A study of Mus musculus with 9 samples.

Results

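The transcripts described here are those of 10 secreted factors that tumour cells use to recruit, feed and instruct myeloid and other immune cells. They are *Csf1*, *Csf2*, *Csf3*, *Il34*, *Il6*, *Il11*, *Lif*, *Il33*, *Tslp* and *Il1a*. The 10 genes were taken by symbol from a table of 55276 gene symbols, and all 10 had a row in it. They were read in mouse intrahepatic cholangiocarcinoma (iCCA) cells with and without a Cas9 cut in *Vcam1*, the gene of a cell surface adhesion molecule. PPTR cells are a 2D line grown from liver cancer organoids whose genotype includes Prom1CreERT2, Tp53flx/flx and Rosa-ZsGreen, in which a tamoxifen-activated Cre under the *Prom1* promoter deletes *Trp53* and turns on ZsGreen. The labels give 3 groups of 3 libraries each, all labelled as cells of this genotype in DMEM with fetal bovine serum: control cells (Vcam1ctrl, named WT in the labels), and the single-cell clones Vcam1KO1 and Vcam1KO2. Each knockout group is 1 clone at different passages, so that its libraries carry the spread between passages and not that between independent clones. The labels name no separate animals or derivations for the libraries of a group, and p values measure only the spread between those libraries.

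Colony stimulating factors were named for the blood cells they make grow from marrow. Csf1 (M-CSF) and Il34 are the ligands of the receptor Csf1r and keep macrophages alive, Csf2 (GM-CSF) acts on macrophages, granulocytes and dendritic cells, and Csf3 (G-CSF) on neutrophils. Il6, Il11 and Lif each bind a receptor of their own and signal through the shared subunit gp130 (*Il6st*) to JAK kinases and Stat3, a route long studied in biliary cancer and in fibrosis. Il33, Tslp and Il1a are alarmins, which epithelial cells release on damage to alert innate lymphoid cells, mast cells and dendritic cells.

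Values are estimated counts of read pairs per gene, given as CPM after TMM scaling of the libraries. The 9 libraries held between 53415907 and 125223073 counts, so that 3 counts, taken as the limit of detection, stood for 0.024 to 0.055 CPM. *Vcam1* itself was at 220 to 329 CPM in Vcam1ctrl libraries, 92.4 to 128 CPM in Vcam1KO1 libraries and 82.9 to 119 CPM in Vcam1KO2 libraries. *Trp53* was counted in every library, at 129.9 to 284 CPM, and a count per gene does not tell a deleted from an intact transcript. Replicate 3 of each clone stood apart from the other libraries of its clone, with a chi-square per degree of freedom of 127 to 313 against 40.1 and 40.8 between replicates 1 and 2. The Vcam1ctrl libraries were also apart, at 95.1 to 189 between pairs, with replicate 2 the farthest from the other two. The markers of the labelled cell type were found in the control and were largely absent from the clones. Of 8 biliary epithelial markers, all had a mean of at least 1 CPM in Vcam1ctrl cells, against 3 in Vcam1KO1 and 2 in Vcam1KO2 cells, in which *Krt8*, *Krt18*, *Krt19* and *Epcam* were each at a mean under 0.5 CPM while *Spp1* was at 2066 to 3132 CPM in Vcam1ctrl and 7456 to 10793 CPM in the clone libraries, above control in all 6, and *Sox9* at 115 to 140 CPM and 107 to 378 CPM. The summed level of 9 fibroblast markers was 427 to 828 CPM in Vcam1ctrl libraries, 12480 to 15940 CPM in Vcam1KO1 and 6749 to 9091 CPM in Vcam1KO2 libraries, although *Dcn*, one of the 9, was at a mean of 74.6 CPM in Vcam1ctrl, 4.34 CPM in Vcam1KO1 and 92.0 CPM in Vcam1KO2 cells. That of 4 hepatocyte markers was 246 to 426.5 CPM in Vcam1ctrl, 1.56 to 3.02 CPM in Vcam1KO1 and 0.222 to 0.48 CPM in Vcam1KO2 libraries, and *Hnf4a*, at a mean of 226 CPM in Vcam1ctrl cells, was at 0 in all clone libraries. Of 10 myeloid markers the sum was 106 to 165 CPM in Vcam1ctrl, 28.2 to 39.5 CPM in Vcam1KO1 and 49.3 to 53.1 CPM in Vcam1KO2 libraries, most of it *Cd14*, and *Tyrobp* was at 0 in every library. The markers did not move together. In Vcam1ctrl, Vcam1KO1 and Vcam1KO2 cells the mean CPM of *Cd14* was 129.5, 22.7 and 41.5, and that of *Ptprc* 0.410, 0.047 and 0.047. That of *Lyz2* was 0.114, 4.07 and 0.219, of *Fcer1g* 0.007, 0.562 and 0.950, and of *Cd68* 5.53, 5.25 and 7.95. With these markers, descent of the clones from the labelled PPTR line could not be settled from the counts, and in each comparison below an effect of the *Vcam1* cut and other differences between the clones and the control cells cannot be told apart. In bulk RNA, fewer cells making a transcript and less of it in each cell cannot be told apart.

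The sequences around these genes are shown first, because cytokine transcripts are controlled both at the promoter and by AU-rich elements of the 3′ UTR, short repeats around ATTTA that shorten a transcript's life. RefSeq promoters (GRCm38.p6) were at hand for 7 of the 10 genes, in 9 windows of 250 bases before a transcription start. *Csf3*, *Il34* and *Tslp* were not among them. Both strands were searched for AP-1 sites (TGACTCA or TGAGTCA), NF-kappaB sites, the STAT palindrome TTCNNNGAA, the cyclic AMP element TGACGTCA and TATAAA. The 4 windows below are those of genes that rose (*Csf1*, *Il6*) and of genes that fell (*Il11*, *Lif*) in Vcam1KO1 cells, with every match in capitals.
Csf1 promoter, chr3:107760470-107760719, minus strand: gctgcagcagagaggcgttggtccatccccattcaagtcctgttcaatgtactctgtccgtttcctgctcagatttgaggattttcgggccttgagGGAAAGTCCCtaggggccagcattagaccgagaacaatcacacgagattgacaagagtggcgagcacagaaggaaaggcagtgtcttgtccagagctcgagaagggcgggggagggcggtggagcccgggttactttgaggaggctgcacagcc
Il6 promoter, chr5:30012864-30013113, plus strand: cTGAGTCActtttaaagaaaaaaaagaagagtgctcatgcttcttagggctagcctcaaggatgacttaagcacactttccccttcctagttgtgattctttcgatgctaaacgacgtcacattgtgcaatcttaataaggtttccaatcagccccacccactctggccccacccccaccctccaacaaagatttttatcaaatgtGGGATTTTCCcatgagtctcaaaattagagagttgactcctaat
Il11 promoter, chr7:4778142-4778391, minus strand: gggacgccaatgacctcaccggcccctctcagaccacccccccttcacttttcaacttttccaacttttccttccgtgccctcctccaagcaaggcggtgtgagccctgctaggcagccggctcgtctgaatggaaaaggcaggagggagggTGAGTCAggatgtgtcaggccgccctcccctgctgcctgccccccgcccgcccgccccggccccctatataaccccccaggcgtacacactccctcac
Lif promoter, chr11:4257318-4257567, plus strand: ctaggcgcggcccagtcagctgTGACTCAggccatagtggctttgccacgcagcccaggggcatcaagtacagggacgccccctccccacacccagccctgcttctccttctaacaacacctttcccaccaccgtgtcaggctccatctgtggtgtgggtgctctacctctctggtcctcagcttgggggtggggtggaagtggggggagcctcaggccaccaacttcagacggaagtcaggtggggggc
In *Csf1* the capitals are an NF-kappaB match that begins 154 bases before the start. In *Il6* they are an AP-1 match 249 bases and an NF-kappaB match 44 bases before it. The *Il11* window precedes the inner of 2 starts, within the gene, and holds an AP-1 match 98 bases before it, as *Lif* does 228 bases before its own. *Il1a* held AP-1 and TATAAA, both windows of *Il33* held TATAAA alone, and the *Csf2* window and that of the outer *Il11* start held none of the motifs searched. The *Csf2* window is chr11:54249900-54250149, minus strand, while the GENCODE gene begins at 54249667. The bases between that GENCODE start and the window were not searched, so that motifs there would be missed. Among 32851 RefSeq promoters of this length 4.46% held an AP-1 match, 3.9% an NF-kappaB match, 7.02% the STAT palindrome, 1.55% the cyclic AMP element and 12.4% TATAAA. A match describes letters in a window and is no measure of binding.

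The 3′ UTRs of the 10 genes differed in their AU-rich elements. For each gene the 30 bases with the most ATTTA pentamers (in capitals, overlaps included) were read from the 3′ UTR of its principal GENCODE vM21 transcript on GRCm38, given here in transcript direction for the 4 genes densest in the pentamer and, for contrast, for *Csf1*.
Csf2 3′ UTR, chr11:54247327-54247356, minus strand: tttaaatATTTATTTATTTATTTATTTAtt
Il6 3′ UTR, chr5:30019677-30019706, plus strand: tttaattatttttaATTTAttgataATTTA
Csf3 3′ UTR, chr11:98702984-98703013, plus strand: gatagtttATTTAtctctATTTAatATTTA
Il11 3′ UTR, chr7:4773504-4773533, minus strand: ttaaaaccagatcttATTTATTTATTTAtt
Csf1 3′ UTR, chr3:107741109-107741138, minus strand: tttatataaggtcATTTAaatatctATTTA
*Csf2* held 9 pentamers in a 3′ UTR of 317 bases, or 28.4 per kb, a density above that of 99.9% of 20263 coding genes. *Il6* held 6 in 427 bases (14.1 per kb, above 99.6% of genes), *Csf3* 6 in 669 bases (8.97 per kb, above 98.3%) and *Il11* 10 in 1194 bases (8.38 per kb, above 97.9%). The other 6 genes lay between 1.8 and 2.92 per kb, beside a median of 1.23 over all genes. The longer element TTATTTATT occurred 4 times in *Csf2*, 5 times in *Il11* and 2 times in *Lif*, in none of the other 7 genes, and in 7.28% of all coding genes.

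Of the 10 genes, 8 passed edgeR's filterByExpr and were tested, while *Csf3* and *Il1a* were too low. Adjusted p values were computed in edgeR with the quasi-likelihood test and adjusted by Benjamini-Hochberg over 17672 genes, and a gene is said to have risen or fallen where its adjusted p was under 0.05. In Vcam1KO cells, both clones pooled, against Vcam1ctrl cells 1 gene rose (*Csf1*) and 2 fell (*Il11* and *Tslp*), and 5 did not pass. Of all genes tested 21.7% were higher and 21.2% lower. In Vcam1KO1 cells 2 of the 8 rose and 6 fell, with a background of 29.9% higher and 30.0% lower. In Vcam1KO2 cells 3 rose, 2 fell and 3 did not pass, with a background of 25.3% higher and 26.1% lower. Both clones were set against the same 3 control libraries, so that these counts are not independent of each other. The median log2 fold change of the 8 genes was -0.57 in the pooled comparison, -1.90 in Vcam1KO1 and -0.42 in Vcam1KO2 cells, against 0.07, 0.02 and 0.00 over all genes tested. Of the 8 tested genes, 3 had 6 Vcam1KO libraries that did not overlap the 3 Vcam1ctrl libraries, which was so for 44.2% of all genes tested.

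**Figure D1:**
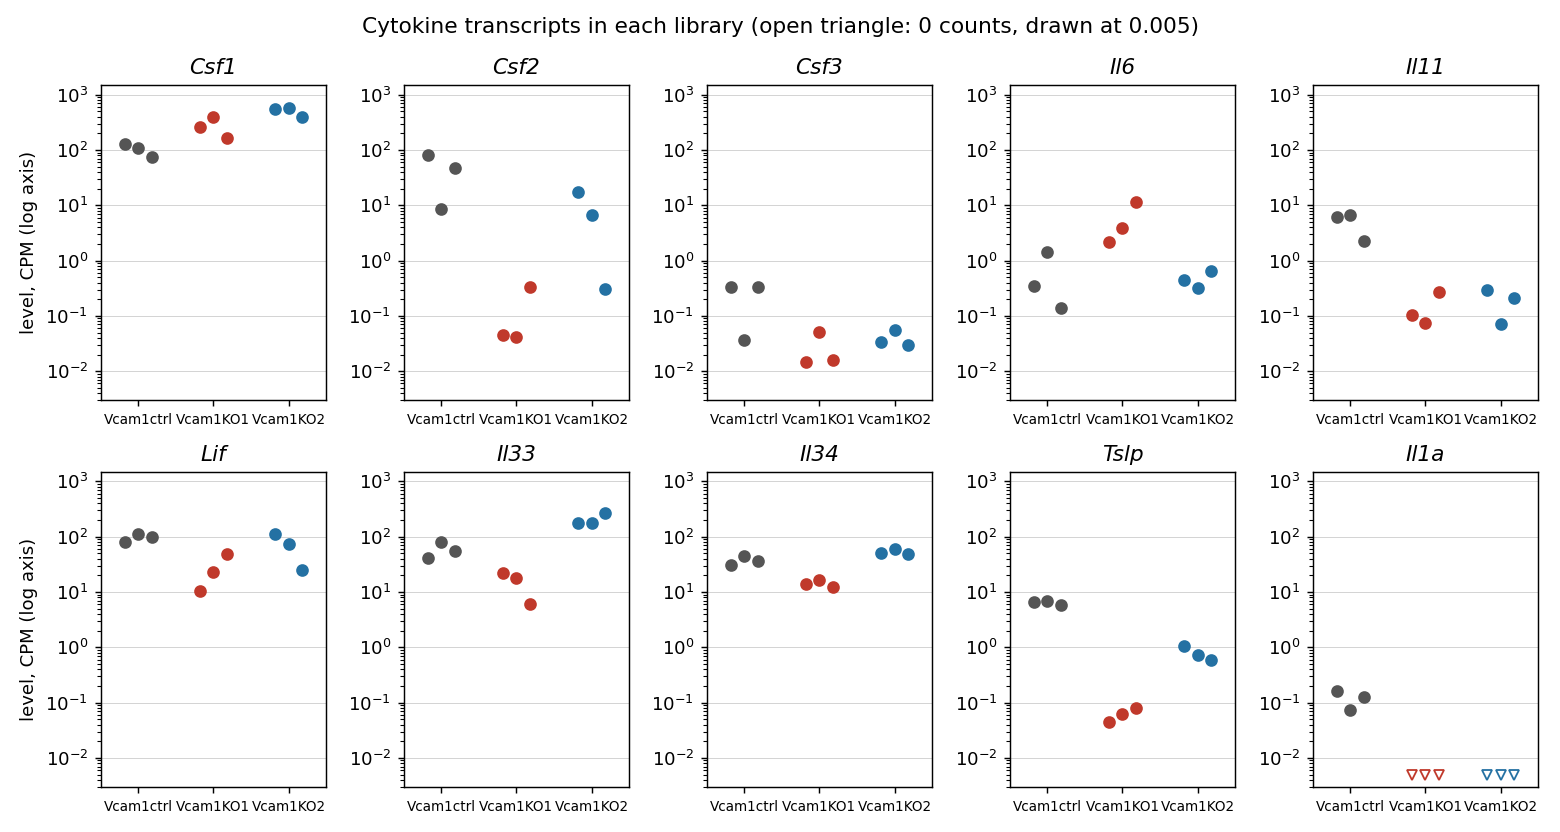
Level of each of the 10 cytokine transcripts in CPM (log axis) in the 3 libraries each of Vcam1ctrl, Vcam1KO1 and Vcam1KO2 cells, 1 point per library, with 0 counts drawn as open triangles at 0.005. *Csf1* lies above control in all 6 clone libraries, *Il11*, *Tslp* and *Il1a* lie below it in all 6, and *Il33* and *Il34* lie below control in Vcam1KO1 and above it in Vcam1KO2 libraries.

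Of the ligands of Csf1r, *Csf1* rose in both clones. *Csf1* (ENSMUSG00000014599.10) lies on GRCm38 at chr3:107741048-107760469, minus strand. It stood at 131, 107 and 73.2 CPM in Vcam1ctrl libraries, at 257, 387 and 163 CPM in Vcam1KO1 libraries and at 557, 571 and 399.8 CPM in Vcam1KO2 libraries. Every clone library lay above every control library, and the Vcam1KO2 libraries all lay above those of Vcam1KO1. The pooled log2 fold change was 1.91 (SE 0.41, edgeR adjusted p = 0.0051), a 3.75-fold increase, with 1.37 (SE 0.32, edgeR adjusted p = 0.0045) in Vcam1KO1 and 2.30 (SE 0.33, edgeR adjusted p = 3.1e-04) in Vcam1KO2 cells. The clones differed by -0.92 on the log2 scale (Vcam1KO1 minus Vcam1KO2, edgeR adjusted p = 0.044), a call that was lost in 10 of 16 alternative fits. Over all 16 fits the adjusted p ranged from 0.013 to 0.12.

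*Il34*, the other ligand of Csf1r, moved in opposite directions in the clones. The gene (ENSMUSG00000031750.15) lies at chr8:110741829-110805924, minus strand. Its levels were 30.3, 44.8 and 36.0 CPM in Vcam1ctrl libraries, 13.9, 16.5 and 12.2 CPM in Vcam1KO1 libraries and 51.7, 58.8 and 47.9 CPM in Vcam1KO2 libraries. The 3 groups did not overlap, with Vcam1KO1 lowest and Vcam1KO2 highest. In Vcam1KO1 cells *Il34* fell by 1.38 on the log2 scale (SE 0.17, edgeR adjusted p = 1.1e-04). In Vcam1KO2 cells it rose by 0.51 (SE 0.17, edgeR adjusted p = 0.030), but not without replicate 1 or 3 of Vcam1ctrl (adjusted p = 0.12 and 0.078) or without replicate 1 or 2 of Vcam1KO2 (0.058 and 0.11). The difference between the clones was -1.89 (SE 0.18, edgeR adjusted p = 6.8e-05), and the pooled comparison gave -0.15 (edgeR adjusted p = 0.85), or -0.44 as the average of the clones' contrasts, where it passed (edgeR adjusted p = 0.026). Their receptor gene *Csf1r* was at 6.43, 3.54 and 12.5 CPM in Vcam1ctrl libraries and between 0.424 and 1.53 CPM in the 6 clone libraries, a log2 fold change of -3.06 (edgeR adjusted p = 0.0013).

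*Csf2* fell in Vcam1KO1 cells and varied widely within every group. It lies at chr11:54247271-54249667, minus strand (ENSMUSG00000018916.5), and the RefSeq start searched above lies upstream of that end. It was at 81.1, 8.43 and 47.3 CPM in Vcam1ctrl libraries, at 0.045, 0.042 and 0.335 CPM in Vcam1KO1 libraries and at 17.1, 6.56 and 0.31 CPM in Vcam1KO2 libraries. In Vcam1KO1 libraries these were 3 to 21 counts, all below control, while the Vcam1KO2 libraries reached from the range of the other clone to above the lowest control library. In Vcam1KO1 cells it fell by 8.44 on the log2 scale (SE 1.61, edgeR adjusted p = 0.0014). Without replicate 3 of that clone the value was -9.99, and without replicate 1 of Vcam1ctrl it was -7.72. In Vcam1KO2 cells the log2 fold change was -2.52 (95% interval -5.09 to 0.06, edgeR adjusted p = 0.094), from -3.76 without replicate 1 of Vcam1KO2 to -1.81 without replicate 1 of Vcam1ctrl, and it passed with no filter on low counts (-2.57, edgeR adjusted p = 0.032). The difference between the clones was -5.92 (SE 1.51, edgeR adjusted p = 0.013), although replicate 3 of Vcam1KO2 lay below the highest Vcam1KO1 library, and limma-voom did not call it (adjusted p = 0.18). With replicate 3 of Vcam1KO1 or replicate 1 of Vcam1KO2 left out the difference was -7.48 or -4.74. The pooled log2 fold change was -3.49 (SE 1.59, edgeR adjusted p = 0.10), and it was -5.48 when the contrasts of the clones were averaged, a fit in which their difference is no part of the spread (edgeR adjusted p = 0.0014). It also passed by limma-voom (-6.10, adjusted p = 0.0092) and without replicate 1 of Vcam1KO2 (-5.004, edgeR adjusted p = 0.034), and was -2.79 without replicate 1 of Vcam1ctrl (edgeR adjusted p = 0.27).

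*Csf3* was low throughout, and near the limit of detection in the clones and in replicate 2 of Vcam1ctrl. It lies at chr11:98701263-98703629, plus strand (ENSMUSG00000038067.2). Counts were 42, 2 and 26 in Vcam1ctrl libraries, 1, 5 and 1 in Vcam1KO1 libraries and 2, 4 and 2 in Vcam1KO2 libraries, or 0.335, 0.037 and 0.329 CPM in control against 0.015 to 0.057 CPM in the clones. Replicate 2 of Vcam1ctrl, the shallowest library and the one lowest in *Csf2*, lay within the range of the clones. With no filter on low counts, over 34314 genes, *Csf3* fell by 2.79 on the log2 scale in the pooled comparison (SE 0.66, edgeR adjusted p = 0.010).

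Of the receptor genes for these 2 factors, *Csf2ra*, the ligand-binding chain for Csf2, fell by 2.17 on the log2 scale in the pooled comparison (edgeR adjusted p = 0.047), from 2.81 to 4.21 CPM in Vcam1ctrl libraries to 1.003 to 1.63 CPM in Vcam1KO1 and 0.137 to 0.192 CPM in Vcam1KO2 libraries. *Csf2rb*, the signalling chain, did not pass in the pooled comparison (log2 fold change -0.55, edgeR adjusted p = 0.52). Its close copy *Csf2rb2* did not either (1.55, edgeR adjusted p = 0.12), and reads that both copies share could be split between them. *Csf2rb* was at 1.83 to 8.51 CPM in Vcam1ctrl libraries and at 2.75 to 6.54 CPM in Vcam1KO2 libraries. Its Vcam1KO1 libraries, at 1.24 to 1.56 CPM, all lay below the control. *Csf3r* was too low to be tested.

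Among the ligands that signal through gp130, *Il6* rose in 1 clone. *Il6* (ENSMUSG00000025746.11) lies at chr5:30013114-30019981, plus strand. Its levels were 0.35, 1.42 and 0.139 CPM in Vcam1ctrl libraries, 2.14, 3.93 and 11.5 CPM in Vcam1KO1 libraries and 0.445, 0.325 and 0.636 CPM in Vcam1KO2 libraries. All Vcam1KO1 libraries lay above all others, and the Vcam1KO2 libraries lay within the range of the control. *Il6* rose by 3.25 on the log2 scale in Vcam1KO1 cells (SE 0.86, edgeR adjusted p = 0.0088), and by 2.31 without replicate 3 of that clone or 4.45 without replicate 2 of Vcam1ctrl. In Vcam1KO2 cells the log2 fold change was -0.39 (95% interval -2.30 to 1.52, edgeR adjusted p = 0.73), with the sign turned to 0.87 without replicate 2 of Vcam1ctrl and to 0.24 by limma-voom. The clones differed by 3.64 (SE 0.88, edgeR adjusted p = 0.0100), or by 2.69 without replicate 3 of Vcam1KO1. Pooled, the value was 2.33 (SE 1.31, edgeR adjusted p = 0.18).

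*Il11*, known for its part in fibroblast activation, fell in both clones. The gene (ENSMUSG00000004371.15) lies at chr7:4772373-4782859, minus strand. It was at 6.05, 6.59 and 2.26 CPM in Vcam1ctrl libraries, at 0.105, 0.073 and 0.271 CPM in Vcam1KO1 libraries and at 0.291, 0.071 and 0.207 CPM in Vcam1KO2 libraries. The clone libraries held 5 to 17 counts each and all lay below the control, which held 179 to 760. The pooled log2 fold change was -4.87 (SE 0.55, edgeR adjusted p = 1.2e-04), a 29.3-fold decrease. It was -5.09 in Vcam1KO1 cells (edgeR adjusted p = 1.6e-04) and -4.72 in Vcam1KO2 cells (edgeR adjusted p = 2.7e-04). Without replicate 3 of Vcam1KO1 the value in that clone was -5.80. The difference between the clones was -0.37, with a 95% interval of -1.92 to 1.19 (edgeR adjusted p = 0.70).

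*Lif*, which keeps stem cells and many tumour cells in an undifferentiated state, fell in Vcam1KO1 cells. It lies at chr11:4257557-4272514, plus strand (ENSMUSG00000034394.14). Levels were 80.9, 112 and 99.5 CPM in Vcam1ctrl libraries, 10.3, 22.6 and 48.1 CPM in Vcam1KO1 libraries and 112, 74.9 and 25.0 CPM in Vcam1KO2 libraries. The Vcam1KO1 libraries lay below the control, and the Vcam1KO2 libraries spread from the top of the control range down to within the other clone. In Vcam1KO1 cells the log2 fold change was -1.85 (SE 0.59, edgeR adjusted p = 0.022). It was -2.56 without replicate 3 of that clone, and without its replicate 2 the call was lost (adjusted p = 0.067). In Vcam1KO2 cells the value was -0.46 (95% interval -1.76 to 0.83, edgeR adjusted p = 0.53). Between the clones the difference of -1.39 did not pass (edgeR adjusted p = 0.089), but it did without replicate 3 of Vcam1KO1 (-2.10, adjusted p = 0.022) or of Vcam1KO2 (-1.84, adjusted p = 0.027) and with DESeq2 (adjusted p = 0.033).

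Of the receptor genes of this family *Il6st*, *Lifr* and *Osmr* rose in both clones. *Il6st*, the gp130 gene, was at 105 to 133 CPM in Vcam1ctrl libraries and at 216 to 389 CPM in the clone libraries, a rise of 1.33 on the log2 scale in the pooled comparison (SE 0.20, edgeR adjusted p = 6.0e-04). *Lifr*, the Lif receptor, was at 4.20, 2.53 and 2.65 CPM in Vcam1ctrl libraries and between 46.3 and 113 CPM in the 6 clone libraries, a rise of 4.63 (SE 0.34, edgeR adjusted p = 8.9e-06). *Osmr*, the partner of gp130 for oncostatin M, rose by 2.35 (SE 0.19, edgeR adjusted p = 1.5e-05), from 19.4 to 23.2 CPM up to 84.2 to 137 CPM. The ligand-specific chain for Il6, *Il6ra*, did not pass in the pooled comparison (1.33, edgeR adjusted p = 0.082). It rose by 1.97 in Vcam1KO2 cells (edgeR adjusted p = 1.4e-05), the clone in which *Il6* itself did not pass, and the clones differed by -1.83 (edgeR adjusted p = 7.1e-05). The chain for Il11, *Il11ra1*, rose in Vcam1KO1 cells (1.29, edgeR adjusted p = 1.2e-04) and not in Vcam1KO2 cells (-0.21, edgeR adjusted p = 0.30), with a difference of 1.499 between the clones (edgeR adjusted p = 1.8e-04).

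Of the alarmins, *Il33* moved in opposite directions in the clones. *Il33* (ENSMUSG00000024810.16) lies at chr19:29925114-29960718, plus strand. It was at 42.0, 79.5 and 55.8 CPM in Vcam1ctrl libraries, at 22.2, 17.7 and 6.19 CPM in Vcam1KO1 libraries and at 174, 181 and 269.6 CPM in Vcam1KO2 libraries. The 3 groups did not overlap, in the same order as for *Il34*. *Il33* fell by 1.94 on the log2 scale in Vcam1KO1 cells (SE 0.43, edgeR adjusted p = 0.0033) and rose by 1.82 in Vcam1KO2 cells (SE 0.42, edgeR adjusted p = 0.0056). The clones differed by -3.76 (SE 0.46, edgeR adjusted p = 3.2e-04), a 13.5-fold difference, and by -3.17 with replicate 3 of both clones left out. The pooled value was 0.92 (SE 1.06, edgeR adjusted p = 0.51) and changed sign by limma-voom (-0.12) and as the average of the clones (-0.06).

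The receptor of Il33, *Il1rl1* (ST2), showed the largest rise of the 13 receptor genes tested. It was at 0.406, 0.996 and 0.215 CPM in Vcam1ctrl libraries, at 237, 420 and 80.6 CPM in Vcam1KO1 libraries and at 441, 431 and 516 CPM in Vcam1KO2 libraries. Control libraries held 17 to 54 counts and clone libraries 5050 to 40271, with no overlap. The pooled rise was 9.40 on the log2 scale (SE 0.92, edgeR adjusted p = 4.9e-05), with 8.91 in Vcam1KO1 (edgeR adjusted p = 1.1e-05) and 9.82 in Vcam1KO2 cells (edgeR adjusted p = 9.5e-06). *Il1rl1* makes a membrane receptor and a soluble decoy from separate transcripts, which a count per gene cannot tell apart. Its co-receptor *Il1rap* rose by 1.499 in the pooled comparison (edgeR adjusted p = 0.035), and *Il1r1*, the receptor of Il1a, by 1.66 (edgeR adjusted p = 1.7e-05). For *Il1rap* the Vcam1KO1 libraries, at 5.89 to 10.7 CPM, overlapped those of Vcam1ctrl, at 4.15 to 6.75 CPM. The Vcam1KO2 libraries, at 22.6 to 24.7 CPM, lay above both.

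*Tslp*, which acts on dendritic cells, fell in both clones and more so in Vcam1KO1 cells. Its gene is ENSMUSG00000024379.4. The levels were 6.52, 6.90 and 5.80 CPM in Vcam1ctrl libraries, 0.045, 0.063 and 0.080 CPM in Vcam1KO1 libraries and 1.06, 0.721 and 0.591 CPM in Vcam1KO2 libraries. The 3 groups did not overlap, and Vcam1KO1 libraries held 3 to 6 counts each. The pooled log2 fold change was -3.91 (SE 0.90, edgeR adjusted p = 0.0067), and -4.85 by limma-voom. It was -6.65 in Vcam1KO1 cells (SE 0.35, edgeR adjusted p = 5.6e-07) and -3.02 in Vcam1KO2 cells (SE 0.28, edgeR adjusted p = 1.9e-05). The clones differed by -3.63 (SE 0.34, edgeR adjusted p = 7.4e-05). Of its receptor chains, *Il7r* was too low to be tested and *Crlf2* did not pass in the pooled comparison (0.70, edgeR adjusted p = 0.065).

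*Il1a* lies at chr2:129299610-129309972, minus strand (ENSMUSG00000027399.1). It was at 0.159, 0.074 and 0.126 CPM in Vcam1ctrl libraries, which was 20, 4 and 10 counts, and at 0 counts in all 6 clone libraries. Against the limit of 3 counts per library the mean was at least 2.74-fold lower in Vcam1KO cells, a bound that covers counting error only. With no filter on low counts the edgeR adjusted p was 0.0037 over 34314 genes.

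**Figure D2:**
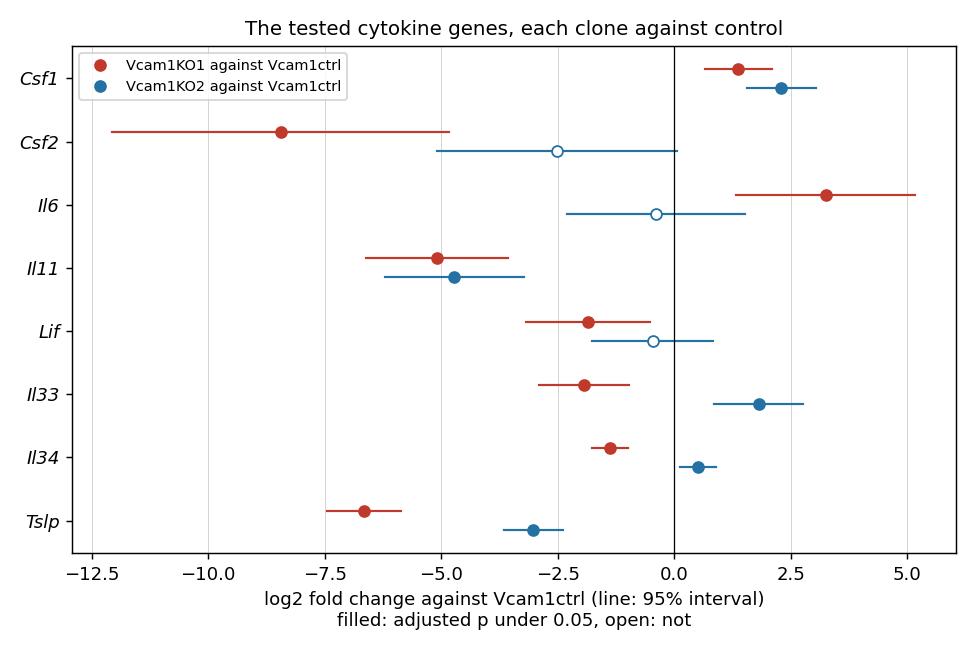
Log2 fold change against Vcam1ctrl of the 8 tested cytokine genes in Vcam1KO1 and Vcam1KO2 cells, with lines for the 95% interval and filled points for an adjusted p under 0.05 (edgeR's quasi-likelihood test). *Csf1* lies to the right of 0 and *Il11* and *Tslp* to the left in both clones, while *Il33* and *Il34* lie on opposite sides of 0.

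Set against each other in the same fit, the clones differed in 6 of the 8 tested genes, with 1 (*Il6*) higher and 5 (*Csf1*, *Csf2*, *Il33*, *Il34* and *Tslp*) lower in Vcam1KO1 than in Vcam1KO2 cells. Of all genes tested 20.2% were higher and 18.5% lower in that comparison. The median log2 difference of the 8 genes was -1.64, against 0.04 over all genes. *Il11* and *Lif* did not pass. With replicate 3 of both clones left out, again 6 of the 8 were called, a setting added once the data had been examined. Of these, *Csf1* was no longer called (-0.83, edgeR adjusted p = 0.056) and *Lif* was (-2.52, edgeR adjusted p = 0.0021).

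Levels of different genes were compared per kb of the principal transcript. In Vcam1ctrl cells the order by mean was *Csf2* (57.0 CPM per kb), *Csf1* (24.9), *Lif* (24.2), *Il33* (23.2), *Il34* (21.7), *Tslp* (5.69), *Il11* (2.55), *Il6* (0.558), *Csf3* (0.165) and *Il1a* (0.061). The first 5 overlapped in their ranges over libraries, from 10.5 to 101 CPM per kb for *Csf2* and from 16.5 to 31.3 CPM per kb over the other 4. In Vcam1KO1 cells *Csf1* came first (64.4 CPM per kb), followed by *Il34* (8.31), *Lif* (6.71), *Il33* (6.04) and *Il6* (5.12), whose ranges overlapped one another and none of which reached that of *Csf1*. In Vcam1KO2 cells *Csf1* (122 CPM per kb) and *Il33* (81.7) led with overlapping ranges, ahead of *Il34* (30.9), *Lif* (17.6) and *Csf2* (9.98). In Vcam1ctrl cells the ranges of *Il11* and *Il6*, of *Il6* and *Csf3* and of *Csf3* and *Il1a* also overlapped, while *Tslp* lay apart from both its neighbours in the order.

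**Figure D3:**
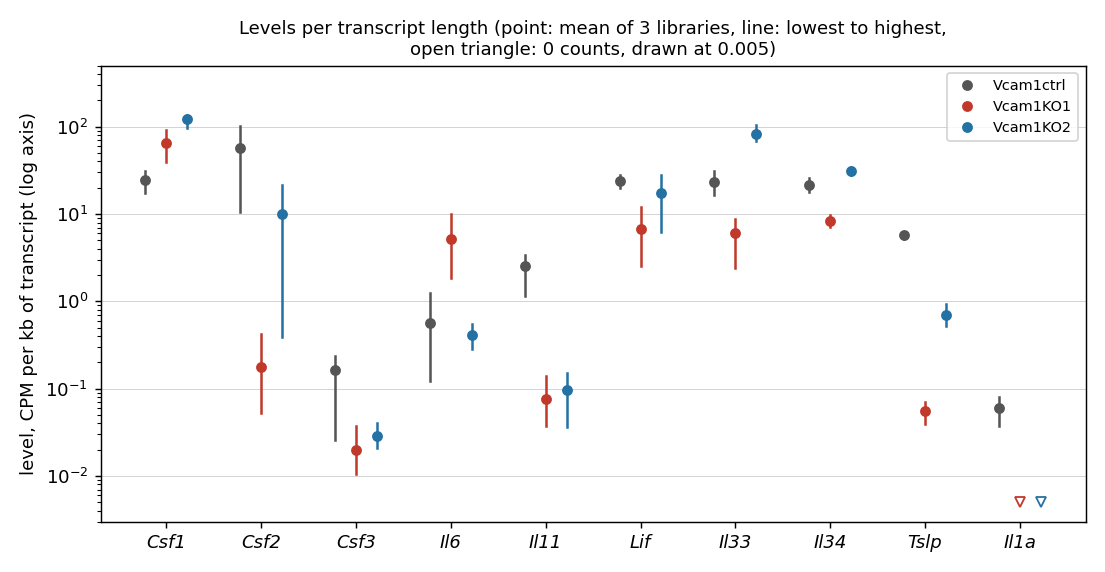
Level of the 10 cytokine transcripts in CPM per kb of the principal transcript (log axis), as the mean of 3 libraries (point) with the lowest and highest library (line) in Vcam1ctrl, Vcam1KO1 and Vcam1KO2 cells. *Csf2* has the highest mean in control (57.0 CPM per kb) and *Csf1* in Vcam1KO1 (64.4) and Vcam1KO2 (122).

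The same pathway was followed through lists of related genes. Of 18 receptor genes for the 10 factors 13 were tested, and 6 rose and 2 fell in the pooled comparison, 7 and 3 in Vcam1KO1 cells and 8 and 2 in Vcam1KO2 cells, with a pooled median log2 fold change of 1.33 against 0.07 for all genes. The shares over all genes tested were 21.7% higher and 21.2% lower pooled, 29.9% and 30.0% in Vcam1KO1 and 25.3% and 26.1% in Vcam1KO2 cells. *Csf3r*, *Cntfr*, *Il1r2*, *Ptprz1* and *Il7r* were not tested.

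**Figure D4:**
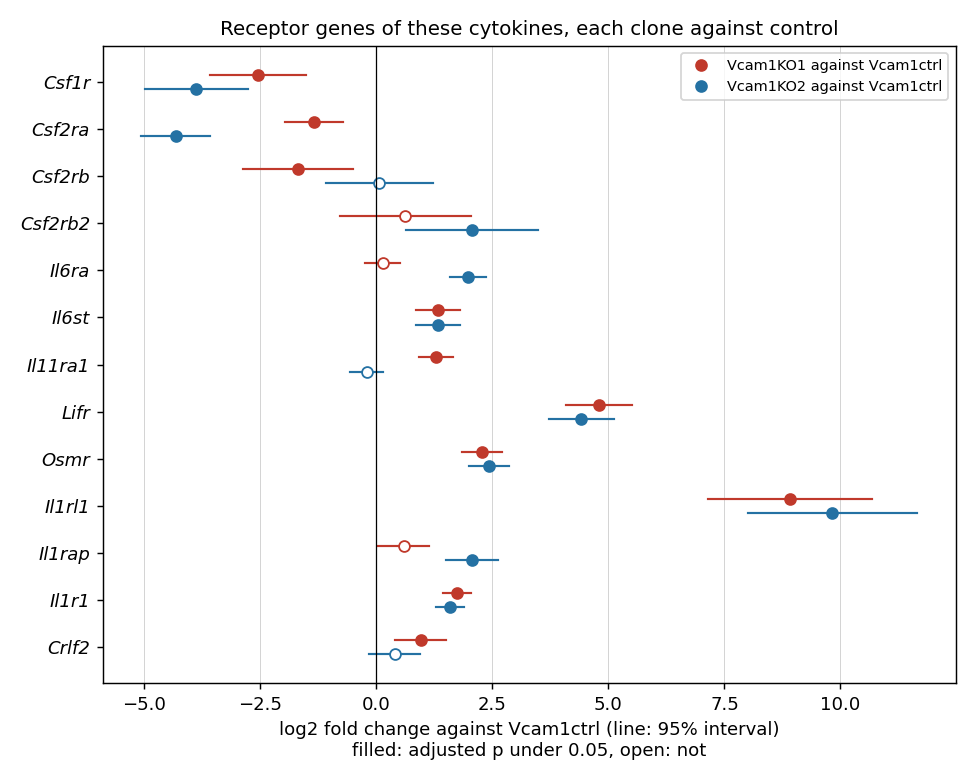
Log2 fold change against Vcam1ctrl of the 13 tested receptor genes in Vcam1KO1 and Vcam1KO2 cells, with lines for the 95% interval and filled points for an adjusted p under 0.05 (edgeR's quasi-likelihood test). *Il1rl1* lies farthest to the right (8.91 and 9.82), *Lifr* follows (4.80 and 4.41), and *Csf1r* and *Csf2ra* lie to the left of 0.

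Of 18 JAK-STAT genes, the kinases, transcription factors, feedback inhibitors and common targets downstream of gp130 and the Csf2 receptor, 9 rose, 4 fell and 5 did not pass in the pooled comparison. In Vcam1KO1 cells 10 rose and 4 fell, and in Vcam1KO2 cells 9 rose and 5 fell. Of all genes 21.7% rose and 21.2% fell pooled, 29.9% and 30.0% in Vcam1KO1 and 25.3% and 26.1% in Vcam1KO2 cells, and the pooled median of the 18 was 0.495 on the log2 scale against 0.07. The largest changes among those that passed included those of *Cebpd*, a transcription factor of the acute phase (log2 fold change 3.48, edgeR adjusted p = 0.0064), *Cish*, a feedback inhibitor of Stat5 (2.42, edgeR adjusted p = 0.0040) and *Stat5a* (1.67, edgeR adjusted p = 0.016). These all rose. The 4 that fell were *Jak2*, *Socs2*, *Cebpb* and *Bcl3*. Their mean CPM in Vcam1ctrl and Vcam1KO cells was, in this order, 272 and 120, 60.9 and 22.2, 110 and 48.6, and 34.7 and 16.5. *Jak1*, *Tyk2*, *Socs3*, *Pim1* and *Junb* did not pass. *Socs3*, the feedback inhibitor of gp130 signalling, was at 207, 52.9 and 239 CPM in Vcam1ctrl libraries, at 108, 278 and 495 CPM in Vcam1KO1 libraries and at 79.0, 75.2 and 87.4 CPM in Vcam1KO2 libraries, with a pooled log2 fold change of 0.17 (edgeR adjusted p = 0.86).

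Of 35 other cytokines 20 were tested, of which 4 rose and 9 fell in the pooled comparison, 8 and 11 in Vcam1KO1 cells and 4 and 8 in Vcam1KO2 cells. The shares over all genes were 21.7% and 21.2%, 29.9% and 30.0%, and 25.3% and 26.1% in the same order, so that the pooled share that rose was near that of all genes. The median log2 fold change was -0.89 in the pooled comparison, against 0.07 over all genes. *Tnfsf11* (RANKL), which drives osteoclasts through a receptor of the TNF family, was at 25.3, 16.4 and 8.58 CPM in Vcam1ctrl libraries and at 3 counts in 1 and 0 counts in 5 of the clone libraries. This was at least 383-fold lower in Vcam1KO cells, against the limit of 3 counts per library. *Tnfsf15* fell by 6.51 on the log2 scale (edgeR adjusted p = 2.0e-06), *Ltb*, which organizes lymphoid tissue, fell by 5.21 (edgeR adjusted p = 7.7e-05) and *Thpo*, the growth factor of megakaryocytes, fell by 4.98 (edgeR adjusted p = 1.0e-05). The 4 that rose were *Il18* (2.31, edgeR adjusted p = 7.1e-06), *Kitl* (1.44, edgeR adjusted p = 0.0040), *Clcf1*, a further ligand of the gp130 family (1.42, edgeR adjusted p = 0.0093), and *Mif* (0.77, edgeR adjusted p = 0.015).

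Of 10 genes whose proteins bind AU-rich elements or otherwise set the life of cytokine transcripts, 3 rose and 0 fell in the pooled comparison (edgeR's quasi-likelihood test, also with 0 lower at an unadjusted p under 0.05), which were *Tia1* (1.29, edgeR adjusted p = 0.019), *Hnrnpd* (0.69, edgeR adjusted p = 0.041) and *Rc3h2* (0.47, edgeR adjusted p = 0.0053). In Vcam1KO1 cells 3 rose and 0 fell, and in Vcam1KO2 cells 4 rose and 1 fell. For *Hnrnpd* the Vcam1KO1 libraries, at 88.7 to 123 CPM, overlapped those of Vcam1ctrl, at 70.8 to 95.4 CPM. The Vcam1KO2 libraries, at 154 to 186 CPM, did not. Over all genes tested 21.7% rose and 21.2% fell pooled, 29.9% and 30.0% in Vcam1KO1 and 25.3% and 26.1% in Vcam1KO2 cells, so that the 3 of 10 that rose pooled and in Vcam1KO1 cells lay near the share of all genes, and the pooled median was 0.32 on the log2 scale against 0.07. *Zfp36* (tristetraprolin), which triggers decay at AU-rich elements, was singled out after its values were seen. It stood at 275, 49.4 and 428 CPM in Vcam1ctrl libraries, at 245, 476 and 1151 CPM in Vcam1KO1 libraries and at 329.6, 234 and 27.4 CPM in Vcam1KO2 libraries. Replicate 2 of Vcam1ctrl and replicate 3 of Vcam1KO2, its lowest libraries, were also the lowest of their groups in *Csf2*, and replicate 3 of Vcam1KO1, its highest, was the highest of its group in *Csf2*, *Il6* and *Lif*. *Il6* did not follow it in the other groups, and *Lif* did not in the control. That Vcam1ctrl library was the highest control library in both *Il6* and *Lif*. That Vcam1KO2 library was the highest of its clone in *Il6*, but the lowest in *Lif*, as in *Zfp36*. The part of this spread in the cytokine levels was not tested.

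For each tested gene the nearest pattern over the 9 libraries was looked for among 13087 genes with a mean of at least 1 CPM. The highest Pearson correlations of log2 CPM were 0.99 with *G6pdx* for *Csf1*, 0.97 with *Syngr1* for *Csf2*, 0.98 with *Zfp1* for *Il6*, 0.98 with *Sowahc* for *Il11*, 0.99 with *Dgkd* for *Lif*, 0.99 with *Padi3* for *Il33*, 0.99 with *Ube2g2* for *Il34* and 0.996 with *Slc9a2* for *Tslp*. The second nearest were *Runx3* for *Csf1*, *Casp4* for *Csf2*, *Ostn* for *Il11*, *Dnajb9* for *Lif*, *Pcbp3* for *Il33*, *Ccn3* for *Il34* and *Slk* for *Tslp*. The 9 points fall into 3 groups that share a clone, and the groups held between 57.6% and 99.1% of the variance of the 8 genes, so that these likenesses describe the libraries only.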

How the data were processed

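Messenger RNA was sequenced from PPTR cells in 9 stranded, paired-end libraries, 3 each of Vcam1ctrl, Vcam1KO1 and Vcam1KO2 cells, and samples were grouped by their labels. The authors pseudoaligned the reads with kallisto 0.46.1 to GENCODE transcripts of GRCm38. They deposited estimated counts per gene symbol, without normalization. How transcripts were summed to genes is not given in the sources used here. All estimated counts were whole numbers as deposited and were used as such.

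Counts were scaled with TMM and filtered with filterByExpr (minimum count 10) in edgeR 4.0.16 under R 4.3.3, which left 17672 genes. The pooled comparison set 6 Vcam1KO against 3 Vcam1ctrl libraries in a fit with 2 groups, and the contrasts of single clones came from a fit with 3 groups over all 9 libraries. Genes were tested with the quasi-likelihood F test of edgeR and p values adjusted by Benjamini-Hochberg, with a threshold of 0.05. Log2 levels used a prior count of 2. Library totals lay between 53415907 and 125223073 counts, and with 3 libraries per group the spread between libraries, not counting, set the precision except for genes near 3 counts. The scripts were tested on simulated data.

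The 10 genes and the lists of related genes were chosen with earlier results of these data known. Of each list the genes past the threshold with the largest change in the pooled comparison are named, at most 4, with those not past it where they number 5 or fewer, and other list genes are named as receptors of a described factor or after their values were seen. Nearest patterns are the 2 genes with the highest correlation. A few items that these rules would name are not reported here.

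Promoters are from RefSeq (GRCm38.p6), and gene positions, transcript lengths and 3′ UTRs from GENCODE vM21, another release than the one used for counting. Alternatives were limma-voom (limma 3.58.1), which after TMM is the study's own test, DESeq2 1.42.0, upper-quartile normalization, no filter, a filter at a mean of 1 CPM, each library left out, an average over both clone contrasts, fits on the 6 libraries compared and, chosen after the data were seen, replicate 3 of both clones left out. Figures were drawn with matplotlib 3.10.9 in python 3.11.15.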

Additional observations from a re-analysis of the deposited data

Results flagged for a closer look

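The difference from control was not the same in the 2 clones, by the contrast of Vcam1KO1 against Vcam1KO2 in edgeR (quasi-likelihood test, Benjamini-Hochberg adjusted), in 6 of the 8 cytokine genes tested. The log2 difference (Vcam1KO1 minus Vcam1KO2) was -0.92 for *Csf1*, -5.92 for *Csf2*, 3.64 for *Il6*, -3.76 for *Il33*, -1.89 for *Il34* and -3.63 for *Tslp*. The call of a difference was lost in 10 of 16 alternative fits for *Csf1* and in 1 of 16 for *Csf2*. For *Il33* and *Il34* the clones stood on opposite sides of the control, each with an adjusted p under 0.05. The rise of *Il34* in Vcam1KO2 cells lost its call in 4 of 16 alternative fits. Each clone is a single one, and an effect of the *Vcam1* cut and other differences between the clones cannot be told apart.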

How the results depend on the processing

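Of 512 tests of the 8 cytokine genes under alternative settings, 479 kept their direction and their side of the threshold, 16 lost the call, 10 gained one and 7 changed sign. The sign changes were all of values that did not pass: *Il33* in the pooled comparison (-0.12 by limma-voom, -0.063 as the average of the clones' contrasts), *Il34* in the pooled comparison (0.0049 and 0.018 without replicate 1 and 3 of Vcam1KO1, within a range of -0.38 to 0.018 over libraries left out), *Il6* in Vcam1KO2 cells (0.24 by limma-voom, and -0.87 to 0.87 over libraries left out) and *Il11* between the clones (-1.08 to 0.014 over libraries left out). In the pooled comparison 3 cytokine genes were called, against 5 with no filter on low counts and 5 as the average of the clones' contrasts. In Vcam1KO2 cells 5 were called, against 8 with no filter. Both changes with no filter come with the 2 genes tested only then, and in Vcam1KO2 cells with *Csf2*. Of the 10 genes for transcript decay, calls in the pooled comparison lay between 1 and 3 with 1 library left out, in Vcam1KO2 cells between 3 and 5, with 3 when no filter was used, and between the clones from 2 to 5, with 1 when replicate 3 of both clones was left out. The cause was not tested. No paired analysis was possible because the labels give no replicate number that groups share. Depth limits *Csf3*, *Il1a* and, in Vcam1KO1 cells, *Csf2* and *Tslp*, which rest on a few counts per library. It also limits *Il11* in both clones, where the libraries held 5 to 17 counts each.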
